A study of Mus musculus with 4 samples.

Results

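The genes described here are the nuclear and mitochondrially encoded genes of oxidative phosphorylation (OXPHOS), measured by scRNAseq in human immune cells from huNSG-SGM3 mice. They were taken by symbol, as the human genes that start with MT- or with the prefixes of the subunits of complexes I to V, plus CYC1. Of the 33538 human genes in the files, 109 symbols matched and 101 had at least 100 unique molecular identifiers (UMIs, 1 per captured transcript) over the human barcodes, namely 13 mitochondrially encoded and 88 nuclear genes. By complex, the nuclear genes numbered 39 for complex I, 8 for complex II, 10 for complex III, 13 for complex IV and 18 for complex V. The prefixes also caught 8 nuclear genes not counted as subunits here: the 4 SDHAF assembly factors of complex II, the antisense genes NDUFB2-AS1 and NDUFV2-AS1, and the gene copies UQCRHL and ATP5MGL.

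The 4 libraries analysed, 1 per group, came from a study of spinal cord injury (SCI) in mice with a human immune system. The groups were blood of naïve mice, blood of sham mice (laminectomy at T9 alone), blood of SCI mice (contusion at T9), and the injured cord of SCI mice, with both operated groups taken 7 days after surgery. All hosts were NSG-SGM3 mice, on a NOD.Cg-Prkdcscid background with the IL2rgtm1Wjl allele, labelled as 15 weeks old. All carry the transgene Tg(CMV-IL3,CSF2,KITLG)1Eav/MloySzJ, in which the CMV promoter drives human cytokine genes, and their human cells descend from engrafted cord blood stem cells. Naïve and sham hosts were male whereas SCI hosts were of both sexes, and cells of several animals were pooled, so that host sex, pool and condition cannot be told apart. Per the study's methods SCI blood and cord came from the same mice. Cord tissue was digested with papain at 37 °C and enriched on magnetic beads before sorting for live huCD45+ cells, and blood was not, so that tissue and preparation cannot be told apart either.

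Oxidative phosphorylation takes electrons from NADH at complex I and from succinate at complex II, passes them through complex III and cytochrome c to oxygen at complex IV, and uses the proton gradient built on the way to make ATP at complex V. Complex II is wholly encoded in the nucleus, whereas the other complexes join nuclear subunits to a few hydrophobic subunits encoded and transcribed inside the mitochondrion. Resting T cells rely mainly on this pathway, and activated and dividing lymphocytes enlarge both it and glycolysis.

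With over 50% of UMIs on human genes required, 6713 naïve blood, 4972 sham blood, 6283 SCI blood and 138 SCI cord barcodes were human, with 30944623, 29598660, 33055559 and 1489677 human UMIs. Median UMIs per barcode were 3656, 5201, 4634 and 8569.5. PTPRC, the gene of the CD45 antigen used for the sort, had a UMI in 89.1% to 97.8% of the barcodes of a library. Human barcodes shared between libraries numbered 10 or fewer for each pair. The blood libraries differed in cell make-up, and plasma-like cells were 6.32% of naïve barcodes but 0.161% of sham and 0.159% of SCI blood barcodes, with immunoglobulin genes at 4.99%, 0.336% and 0.385% of human UMIs. The cord held 14.5% basophil or mast-like and 6.52% monocyte-like barcodes, against 2.29% and 0.286% in SCI blood. A cluster led by CLC and CLU, left unnamed, held 18 cord barcodes (13.0%) and 8 SCI blood barcodes (0.127%). With 1 library per group there was no test between groups, and every interval given (95%, exact) covers counting error alone.

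The nuclear OXPHOS genes were first summed per library. Their sum, as counts per 1e+06 human UMIs outside ribosomal and mitochondrial genes (CPM), came to 22350.1 in naïve blood, to 23729.5 in sham blood, to 24232 in SCI blood and to 27246 in the cord. The cord was highest and naïve blood lowest. In all, the 88 genes gave 1618279 UMIs, with between 100 and 109073 per gene and a median of 16491.5. Each UMI stands for 1 transcript caught at its 3′ end, and counts were not divided by length.

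Complex I, the NADH dehydrogenase, summed to 7014, 7342.5 and 7246 CPM in naïve, sham and SCI blood and to 7689 CPM in the cord. NDUFV1, which binds NADH and the flavin, was at 90.3, 82.9 and 87.7 CPM in naïve, sham and SCI blood and at 74.6 CPM in the cord. NDUFS1, the largest iron-sulphur subunit, was at 69.5, 66.7, 64.1 and 51.8 CPM in the same order. For NDUFS3, another core subunit, the levels were 116, 115, 119.7 and 86.4 CPM. The 3 blood values of each of these genes lay close together, and the cord value was the lowest for all 3.

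Complex II, succinate dehydrogenase, which also belongs to the TCA cycle, was at 539, 570.1, 584 and 507 CPM in naïve, sham and SCI blood and the cord. SDHA, the flavoprotein, was at 89.6, 93.8, 90.2 and 65.5 CPM, and SDHB, the iron-sulphur subunit, at 99.3, 97.0, 94.0 and 90.9 CPM. Both were lowest in the cord, and the complex as a whole was lower in the cord than in any blood library. These are library sums over unlike mixtures of cells.

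For complex III, cytochrome bc1, the sum was 2280.4, 2392, 2492 and 3008 CPM. CYC1, the cytochrome c1 that hands electrons to cytochrome c, was at 132, 94.1, 106 and 113 CPM and UQCRC1, a core protein, at 84.5, 72.1, 68.8 and 78.2 CPM. Both were highest in naïve blood. UQCRFS1, the Rieske iron-sulphur protein, was at 229, 222, 207 and 178 CPM.

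For complex IV, cytochrome c oxidase, the nuclear sum was 5761, 6234, 6384 and 6997 CPM. COX4I1, a subunit needed for assembly around the mitochondrial core, was at 878, 919.7, 1067 and 824 CPM, COX5A at 407, 376, 366 and 302 CPM, and COX5B at 410.1, 453, 410.0 and 540.2 CPM. The first of these was highest in SCI blood, COX5A in naïve blood and COX5B in the cord.

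Complex V, the ATP synthase, summed to 6756, 7191, 7526 and 9046 CPM. ATP5F1A and ATP5F1B, which form the catalytic ring, were at 350.3, 291, 308 and 262 CPM and at 411, 379.9, 392 and 309 CPM, and ATP5F1C, the central stalk, at 323, 355, 352 and 326 CPM. The 3 genes for the identical c subunit of the rotor did not share 1 order over the libraries. ATP5MC1 was at 211, 144, 154 and 163 CPM, ATP5MC2 at 547, 570.0, 641 and 717 CPM, and ATP5MC3 at 464, 499, 503 and 441 CPM. Reads of these 3 genes, and of UQCRH and its copy UQCRHL, were taken as counted. How well such related sequences were told apart was not tested.

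Where a subunit has a tissue-specific paralog, the general form carried almost all UMIs. COX4I2, the lung form, had 2 UMIs over the 4 libraries beside 65672 of COX4I1. The muscle forms COX6A2 and COX7A1 had 0 and 1, beside 33746 of COX6A1 and 32666 of COX7A2. COX6B2 and COX8C, known from testis, had 35 and 3, beside 31004 of COX6B1 and 25744 of COX8A. NDUFA4L2, a paralog of the complex IV subunit NDUFA4 that responds to low oxygen, had 100, beside 42502, and its level was 0.909 to 1.65 CPM over the libraries. The cord value, 0.909 CPM, lay below the 2.73 CPM that 3 counts would give there, so that it says little about the cord. COX7B2 was also at 0. A count of 0 over all libraries allows up to 0.0435 CPM, taking 3 counts as the limit. COX7A2L, which joins complexes III and IV into supercomplexes, was at 225, 254, 256 and 201 CPM in naïve, sham and SCI blood and the cord.

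The 13 mitochondrially encoded genes gave 8160870 UMIs. Naïve, sham and SCI blood had 8.60%, 8.28% and 8.85% of all human UMIs on them, and the cord 8.32% (8.28% to 8.37% in the cord, and narrower intervals in blood). Medians over barcodes were 8.55%, 7.76%, 8.33% and 8.09%. In both measures sham blood was the lowest of the blood libraries, while the highest was SCI blood in the sum and naïve blood in the median. For each UMI of a nuclear OXPHOS gene there were 5.15, 4.73 and 5.29 mitochondrial UMIs in naïve, sham and SCI blood and 4.14 in the cord.

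Most barcodes lay in a narrow band and a few were almost purely mitochondrial. The middle 90% of barcodes ran from 4.42% to 14.9% in naïve blood, 4.36% to 13.8% in sham blood and 4.73% to 14.3% in SCI blood, and from 3.66% to 24.6% in the cord. Over 80% mitochondrial UMIs were found in 62 naïve, 58 sham, 30 SCI blood and 4 cord barcodes, or 0.924%, 1.17%, 0.477% and 2.90% of each library (exact binomial interval for the cord 0.795% to 7.26%). Such barcodes had median UMI counts of 781.5, 1066.5, 1096.5 and 713 and held 32, 33, 21 and 1 UMIs of nuclear OXPHOS genes in all. A cluster led by MTRNR2L8 and MTRNR2L12, nuclear copies resembling mitochondrial 16S RNA, held 65, 59, 33 and 4 barcodes with a median share of 97.6%. Barcodes over 80% carried 2.36%, 2.75%, 1.32% and 3.35% of the mitochondrial UMIs of their libraries, and were kept in the sums.

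**Figure D1:**
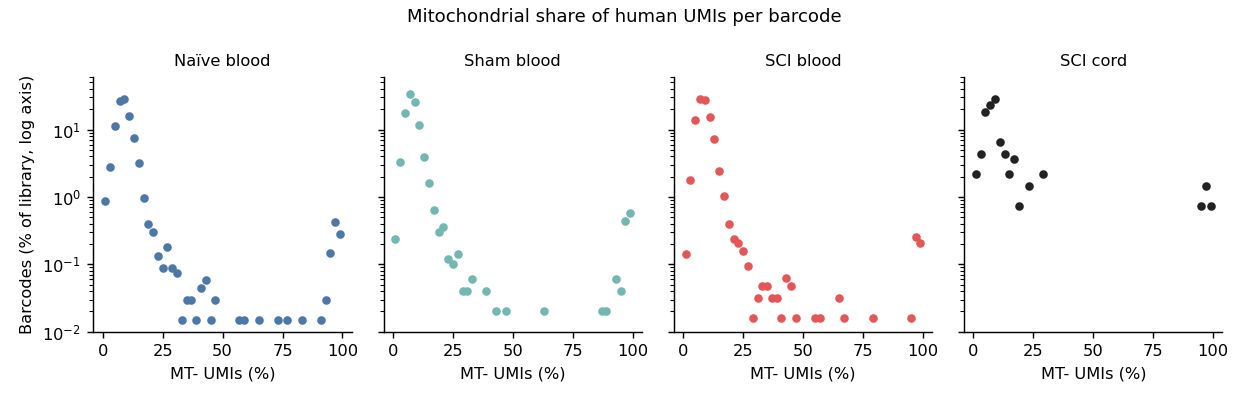
Share of human UMIs on MT- genes per barcode (x axis, percent, in bins of 2), against the percent of the library's barcodes in the bin (y axis, log scale), for each of the 4 libraries; empty bins have no point. The main band lies under 20% and a separate group of 62, 58, 30 and 4 barcodes lies over 80%.

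Within the mitochondrial UMIs the blood libraries were much alike. Complex IV genes took 52.3%, 52.3% and 52.9% in naïve, sham and SCI blood, complex I genes 23.2%, 23.6% and 23.6%, complex V genes 15.2%, 15.3% and 14.9%, and MT-CYB, the cytochrome b of complex III, 9.36%, 8.90% and 8.64%. By gene, MT-CO1, MT-CO2 and MT-CO3, the catalytic core of complex IV, were at 20.2%, 16.7% and 15.5% in naïve blood, 20.7%, 17.0% and 14.6% in sham blood and 21.8%, 15.7% and 15.5% in SCI blood. The membrane subunits of complex I followed in the same order of libraries with MT-ND1 at 4.98%, 4.81% and 5.04%, MT-ND2 at 2.36%, 2.43% and 2.57%, MT-ND4 at 8.86%, 8.59% and 8.47%, and MT-ND5 at 1.53%, 1.86% and 1.82%. MT-ATP6, the proton channel of the ATP synthase, was at 15.1%, 15.3% and 14.8%. MT-ND6, read from the other strand, was at 0.313%, 0.339% and 0.302%. The overlapping pairs MT-ATP8 with MT-ATP6 and MT-ND4L with MT-ND4 share transcripts, so that their counts are uncertain.

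The cell classes differed more widely than the blood libraries did, and nuclear and mitochondrial OXPHOS transcripts did not rank the classes alike. Classes were clusters of the human barcodes formed without any OXPHOS gene and named from marker genes as resembling a type. In every blood library the cycling cells had the highest nuclear sum among classes of at least 50 cells, at 27693, 29627 and 29588 CPM in naïve, sham and SCI blood, and the B-like cells had the highest mitochondrial share of the named classes, at 10.8%, 10.4% and 11.1%. B-like cells were at the same time low in nuclear OXPHOS genes, at 19344, 20095 and 20199 CPM, which gave them 7.53 to 8.34 mitochondrial UMIs per nuclear one, whereas no other named class went above 5.17. Ranges of these values over the blood libraries did not overlap between the B-like cells and any T cell class.

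Monocyte-like cells were low in both, at 18265, 19048.5 and 18712.5 CPM and at 6.77%, 5.76% and 6.35%. Basophil or mast-like cells, the granule-bearing cells favoured by the human cytokines of this strain, were at 20763 to 21122 CPM and 5.49% to 7.00%. Plasma-like cells, which secrete antibody, were at 22980.5 CPM and 6.01% in naïve blood, the sole library with more than 10 of them. Among T cells the nuclear ranges were 24066 to 25542 CPM for CD8 T-like, 23937 to 25399.5 CPM for cytotoxic T-like, 22903 to 24486 CPM for CD4 T-like and 21430.0 to 23130.1 CPM for Treg-like cells, so that the first 3 overlapped and Treg-like cells lay below CD8 T-like and cytotoxic T-like cells. An unnamed T cell cluster led by NRP2 and AK5 was at 24709 to 26065 CPM. The mitochondrial shares of these T cell classes ran from 6.92% to 9.41%, with Treg-like cells lowest in each blood library. Over the 24 points of 9 named classes in blood the 2 measures had a Spearman correlation of 0.23 and a Pearson correlation of 0.10, where points of 1 library share its depth.

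Depth and ribosomal content also moved with class. Ribosomal genes were 7.95% to 10.8% of human UMIs in monocyte-like, 14.1% to 16.8% in cycling, 18.9% to 23.0% in B-like and 24.6% to 27.7% in CD8 T-like cells, and enter the denominator of the mitochondrial share but not that of the nuclear sum; their part in the order of the classes was not tested. Of the 2 clusters within the B-like class, the smaller one (413 cells) held 53.5% barcodes marked as possible doublets and a median mitochondrial share of 9.18%, and the larger one (2650 cells) 0.604% and 11.0%. A further cluster of 294 low-depth barcodes led by MIAT and TTN had 16.5% to 20.3% mitochondrial UMIs and 6533 to 6774 CPM of nuclear OXPHOS genes in blood, and was left unnamed.

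**Figure D2:**
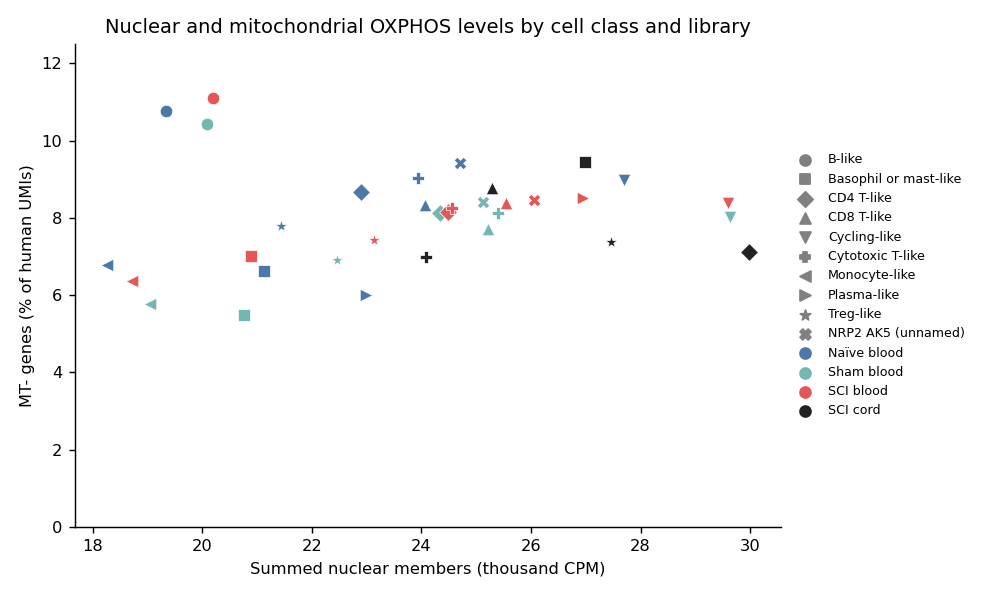
Summed nuclear OXPHOS genes (x axis, CPM in units of 1000, not starting at 0) against the mitochondrial share of human UMIs (y axis, percent) for each named class and the NRP2 AK5 cluster in each library with at least 10 of its cells; shape marks the class and colour the library. B-like cells stand at 10.4% to 11.1% and 19344 to 20199 CPM in the 3 blood libraries, cycling cells at the right, and 3 of the 5 cord points (black; basophil or mast-like, CD4 T-like and Treg-like) well to the right of their class in SCI blood.

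Single genes showed which classes set these sums apart. Counting named classes with at least 50 cells in a library, 80 nuclear genes had at least 50 CPM in a class. Of these, 45 had their highest level in cycling cells, 14 in CD8 T-like and 7 in plasma-like cells. The lowest level was in monocyte-like cells for 34, in B-like for 16, in plasma-like for 13 and in basophil or mast-like cells for 11. Unnamed clusters, that led by NRP2 and AK5 included, were not ranked. Plasma-like cells enter from naïve blood alone. The median ratio of highest to lowest class was 1.93. ATP5MC1 varied most, by 4.86-fold. It was at 480 CPM in plasma-like cells of naïve blood (interval 460 to 500.3), at 264 CPM in the 10 plasma-like cells of SCI blood (191 to 356), and at 96.3 to 101 CPM in monocyte-like cells. CYC1 was at 244 CPM in plasma-like cells of naïve blood, against 72.6 to 84.8 CPM in CD4 T-like and 156 to 187 CPM in cycling cells. In the 10 plasma-like cells of SCI blood it was at 184 CPM (124 to 263), level with the cycling cells there at 187 CPM.

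NDUFA12, an accessory subunit of complex I, went the other way, with 655 to 779 CPM in CD4 T-like cells, 244 to 302 CPM in B-like cells and 209 CPM in plasma-like cells of naïve blood, a ratio of 3.60 between the medians. SDHAF3, the assembly factor for the iron-sulphur subunit of complex II, was at 65.5 to 78.4 CPM in CD8 T-like and 17.4 to 22.1 CPM in monocyte-like cells. In the unranked NRP2 and AK5 cluster SDHAF3 was at 61.7 to 85.1 CPM. COX8A, a small complex IV subunit, was at 692 to 782 CPM in cycling and 237 to 250 CPM in B-like cells. For each of these 3 genes the ranges over the blood libraries did not overlap between the highest and the lowest named class.

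**Figure D3:**
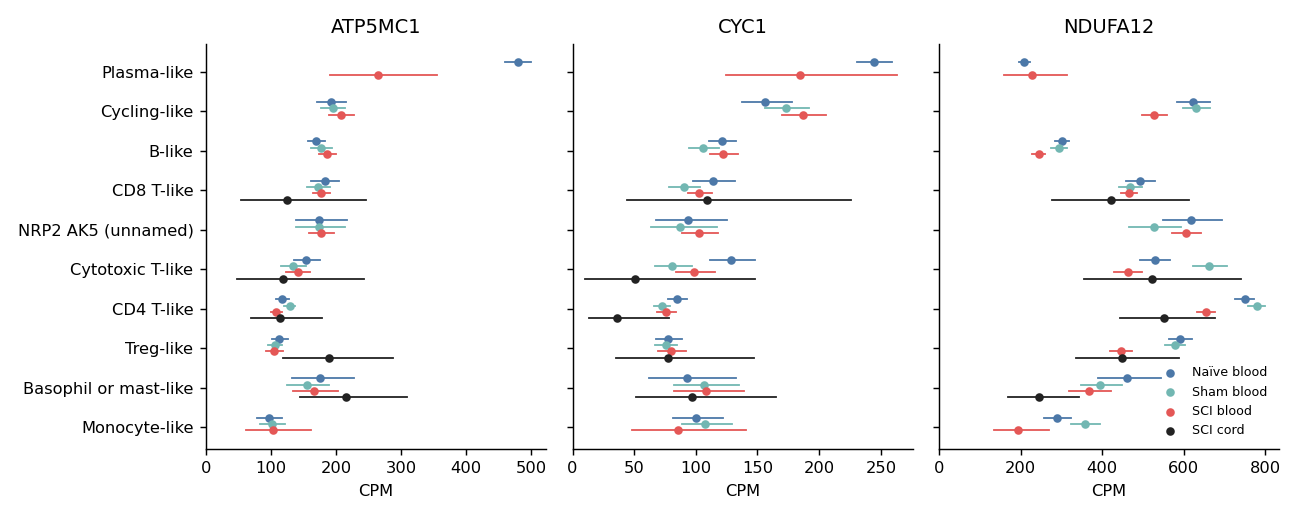
CPM (x axis) of ATP5MC1, CYC1 and NDUFA12 by cell class (y axis) and library (colour), for classes with at least 10 cells in the library; lines are exact Poisson intervals at 95%. In naïve blood ATP5MC1 and CYC1 are highest in plasma-like cells, at 480 and 244 CPM, where NDUFA12 is at 209 CPM.

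Sham against naïve blood addressed surgery without cord injury. The log2 ratio of the nuclear sum was 0.09 (0.08 to 0.09), but -0.01 with immunoglobulin genes left out of the denominator, and that of the mitochondrial share was -0.05 (-0.06 to -0.05). A gene was counted as past the fold where its log2 ratio reached 0.3 in either direction, among genes with at least 20 UMIs in the 2 libraries. Of the 88 nuclear genes, 4 were past the fold upwards and 2 downwards, or 4.55% and 2.27%, beside 18.4% and 13.4% of all 14675 genes. Their median log2 ratio was 0.08, beside 0.06 over all genes. It was 0.11 over the 675 genes with at least the median UMI count of the nuclear OXPHOS genes.

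The genes past the fold downwards were ATP5MC1, at -0.55 (-0.61 to -0.48), and CYC1, at -0.49 (-0.57 to -0.41). Plasma-like cells supplied 45.5% of the ATP5MC1 UMIs and 36.9% of the CYC1 UMIs of naïve blood, and 2.00% and 1.61% in sham blood, while supplying 18.7% and 0.682% of all human UMIs. Without them, ATP5MC1 was at 143 CPM in naïve and 142 CPM in sham blood (log2 ratio -0.01) and CYC1 at 104 and 93.3 CPM (-0.16), and neither was past the fold. ATP5F1A (-0.27) and UQCRC1 (-0.23) were the next lowest. The highest log2 ratios among well-measured genes (at least 100 counts, and 50 CPM in either library) were those of NDUFA13, an accessory complex I subunit (0.35, 0.26 to 0.44), UQCR11 of complex III (0.29), NDUFA12 (0.28) and COX7C of complex IV (0.27). NDUFA13 was above 0 in each of the 9 classes with enough UMIs, at 0.17 to 0.45. COX7C was above 0 in 9 of 10 classes and UQCR11 in 7 of 10, but NDUFA12 in only 4 of 9. Without plasma-like cells NDUFA12 was at 544 CPM in naïve and 582 CPM in sham blood, beside 477 and 581 CPM with them.

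SCI against naïve blood gave a like picture, and shares the naïve library with the comparison above. The nuclear sum had a log2 ratio of 0.12 (0.11 to 0.12), which came down to 0.0016 with ribosomal genes in the denominator and to 0.025 without immunoglobulin genes, and the mitochondrial share one of 0.04, which turned to -0.03 without immunoglobulin genes and -0.07 as a mean over barcodes. Past the fold were 8 nuclear genes upwards and 2 downwards (9.09% and 2.27%), beside 21% and 16.2% of 14701 genes, and with classes weighted equally 4 in place of 10 were past it. The highest among well-measured genes were UQCRB of complex III (0.41, 0.37 to 0.44), COX7C (0.39), UQCR11 (0.37) and ATP5MG of the ATP synthase membrane part (0.35). UQCR11 was above 0 in all 10 classes that could be compared, UQCRB and COX7C in 10 of 11, and ATP5MG in 9 of 11. ATP5MC1 (-0.45) and CYC1 (-0.32) were again lowest, followed by UQCRC1 (-0.30) and NDUFV2 (-0.20), a core complex I subunit. Without plasma-like cells ATP5MC1 was at 0.10 and CYC1 at 0.01.

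SCI against sham blood, which addressed the injury itself, had the fewest nuclear genes past the fold of the blood comparisons. The nuclear sum had a log2 ratio of 0.03 (0.02 to 0.04), which turned to -0.07 with ribosomal genes in the denominator, and the mitochondrial share one of 0.10 (0.09 to 0.10). That share ratio was larger in size than in both comparisons with naïve blood. This order did not hold with classes weighted equally or as means over barcodes. Only 1 nuclear gene was past the fold upwards and 2 downwards (1.14% and 2.27%), beside 14.1% and 13.9% of 14651 genes. SDHAF3 was the gene past the fold upwards, at 0.35 (0.22 to 0.47), with 42.5 CPM in sham and 54.1 CPM in SCI blood, and was above 0 in 7 of 9 classes. Those downwards were NDUFA7 of complex I (-0.33), with 310 and 258 UMIs, and NDUFA4L2 (-0.32), with 36 and 30. COX4I1 was at 0.21 (0.19 to 0.24) and above 0 in all 10 classes, at 0.04 to 0.72. NDUFA12 was at -0.28 (-0.32 to -0.24), from 581 to 479 CPM, and below 0 in 8 of 9 classes. Among well-measured genes CYC1 (0.17) and ATP5MC2 (0.17) were the next highest, and NDUFA13 (-0.19), COX5B (-0.14) and NDUFC2 of complex I (-0.13) the next lowest.

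**Figure D4:**
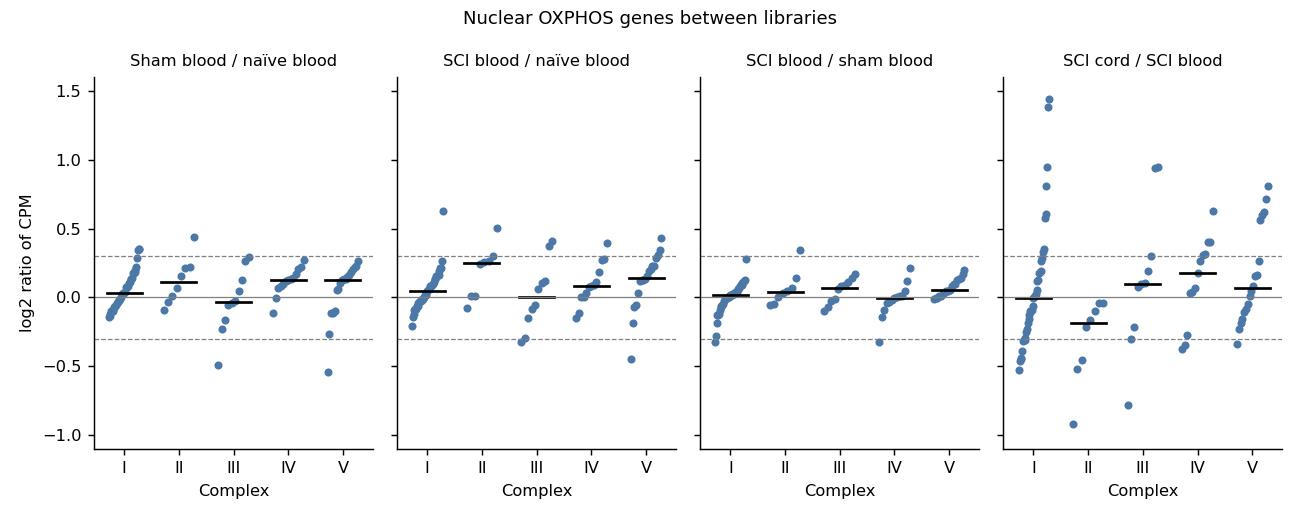
Log2 ratio of CPM (y axis) of the nuclear OXPHOS genes by complex (x axis), for the 4 comparisons; each point is a gene, black bars are medians and dashed lines mark 0.3 and -0.3. NDUFB2-AS1, with 0 UMIs in the cord, lies outside the last panel. In blood 3 to 10 genes lie past the dashed lines, and 37 in the cord comparison.

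The mitochondrial share was also followed within the classes. Against naïve blood its log2 ratio in sham blood was below 0 in the 8 named classes with at least 10 cells in both, from -0.05 in B-like to -0.27 in basophil or mast-like cells, with Treg-like cells at -0.17 and CD4 T-like cells at -0.09. Between SCI and sham blood its log2 ratio was 0.35 in basophil or mast-like, 0.12 in CD8 T-like, 0.10 in Treg-like and 0.09 in B-like cells, with CD4 T-like cells at 0.00 (-0.00 to 0.01). By the median over barcodes sham blood lay above SCI blood in CD4 T-like (7.97% and 7.86%) and cytotoxic T-like cells (8.01% and 7.79%). These comparisons share the sham library. The nuclear sum within the 8 classes had log2 ratios of -0.02 to 0.10 between sham and naïve blood and of -0.05 to 0.04 between SCI and sham blood.

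Among the mitochondrial genes, MT-ND5 took a larger part of the mitochondrial UMIs in sham than in naïve blood (log2 ratio of shares 0.28, 0.26 to 0.30), above 0 in 11 of 11 classes, and in SCI than in naïve blood (0.25, 0.23 to 0.27), above 0 in 11 of 12. MT-CO1 was higher in SCI than in naïve blood by a smaller amount (0.11), in 12 of 12 classes, and MT-CO2 lower in SCI blood than in naïve (-0.09) and sham blood (-0.12), in 12 of 12 and 11 of 11 classes.

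SCI cord against SCI blood, at the same time after injury, spread the nuclear genes far more widely. The nuclear sum had a log2 ratio of 0.17 (0.15 to 0.19), or 1.12-fold, whereas the median gene was at 0.02, beside -0.02 over all genes and -0.19 over the 675 genes with at least the median UMI count of the nuclear OXPHOS genes. Past the fold were 20 nuclear genes upwards and 17 downwards, or 22.7% and 19.3%, beside 32.3% and 31.5% of 13520 genes. With 138 cord cells the intervals are wide, and the share past the fold among all genes shows how often that occurs in this comparison. Among the 18 subunits listed as core for naming, 6 were above 0 and 12 below, with a median of -0.20. Among the other 70 nuclear genes 41 were above 0 and 29 below, with a median of 0.04. This list does not fully part core from accessory genes. It leaves out core complex I subunits such as NDUFV2. It also holds COX4I1, COX5A and COX5B, which are outside the mitochondrially encoded core of complex IV.

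Of the 20 genes past the fold upwards 1, COX5B, was on the list of 18 subunits, and of the 17 downwards 4 were. NDUFA13 was at 97.4 CPM in SCI blood and 265 CPM in the cord (log2 ratio 1.44, 1.26 to 1.62), and at 86.9 and 111 CPM in naïve and sham blood. NDUFB1, another accessory subunit of complex I, was at 172 and 333 CPM (0.95, 0.79 to 1.10). UQCR11 was at 281 and 541 CPM (0.95, 0.82 to 1.07) and UQCRQ, which lies beside cytochrome b in complex III, at 166 and 318 CPM (0.94, 0.78 to 1.10). For all 4 the cord value lay above each of the 3 blood values.

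At the low end of the well-measured genes were NDUFA9 of complex I (-0.53, -0.90 to -0.19), SDHAF3 (-0.52, -1.02 to -0.09), NDUFS3 (-0.46, -0.78 to -0.18) and SDHA (-0.45, -0.82 to -0.12), each with 95 or fewer UMIs in the cord. By complex, all 8 genes of complex II were below 0, with 3 past the fold, namely SDHA and the assembly factors SDHAF3 and SDHAF4 (-0.92, with 4 UMIs in the cord). The subunits SDHB, SDHC and SDHD were at -0.04, -0.16 and -0.04, with intervals that include 0. In complex I, 8 were past the fold upwards and 9 downwards, in complex III 2 and 2, in complex IV 5 and 2, and in complex V 5 and 1. The complex V sum had a log2 ratio of 0.27 (0.24 to 0.29), complex III one of 0.27 (0.22 to 0.32), complex IV 0.13 (0.10 to 0.17), complex I 0.09 (0.05 to 0.12) and complex II -0.20 (-0.33 to -0.08). By class the complex II sum was higher in the cord than in SCI blood in CD4 T-like (606 and 547 CPM) and Treg-like cells (578 and 546 CPM). It was lower in CD8 T-like (610 and 644 CPM), cytotoxic T-like (573 and 617 CPM) and basophil or mast-like cells (334 and 437 CPM). The part of cell make-up in the library value was not tested. The catalytic ATP5F1B was at -0.34, and ATP5F1E, the smallest subunit of the same part, at 0.62, from 1694 to 2598 CPM.

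The nuclear genes were followed within the 5 classes that had at least 10 cells in both libraries, with 10 to 33 cord cells each. Of the highest genes named above, NDUFA13, NDUFB1 and UQCR11 were above 0 in all 5 classes, and UQCRQ in 3 of 5 (-0.49 to 1.38). The lowest named genes were mixed within classes. SDHA was above 0 in 3 of 5, NDUFA9 and NDUFS3 in 2 of 5, and SDHAF3 in 2 of 4. Of the 79 nuclear genes with a value in all 5, 15 were above 0 in every class and 4 below 0 in every class. The same count was not made over all genes. In these classes 25.9% to 44.7% of all genes were past the fold upwards and 27.9% to 40.6% downwards. The all-gene median was -0.14 in basophil or mast-like cells and 0.09 to 0.19 in the T cell classes. NDUFA13 was at 1.11 to 1.97, NDUFA3 at 0.96 to 1.29, UQCR11 at 0.53 to 1.27, ATP5ME at 0.63 to 0.87 and ATP5F1E at 0.31 to 0.75. Below 0 in each class were NDUFS1 (-0.93 to -0.15), UQCRFS1 (-2.25 to -0.21), ATP5F1B (-1.11 to -0.05) and ATP5PD (-0.61 to -0.03). These lists rest on few UMIs per class, and were chosen after their values had been seen.

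The class sums did not all move as the library did. The nuclear sum was higher in the cord in basophil or mast-like (log2 ratio 0.37, 0.32 to 0.42), CD4 T-like (0.29, 0.25 to 0.33) and Treg-like cells (0.25, 0.20 to 0.30), while CD8 T-like (-0.01, -0.09 to 0.06) and cytotoxic T-like cells (-0.03, -0.11 to 0.05) had intervals that include 0. The mitochondrial share was higher in the cord in basophil or mast-like cells, at 9.44% against 7.00% (0.43), and lower in CD4 T-like cells, at 7.11% against 8.14% (-0.20), and in cytotoxic T-like cells, at 6.99% against 8.26% (-0.24). For CD8 T-like cells it was at 8.78% against 8.38% and for Treg-like cells at 7.38% against 7.42%. Among the 5 classes, basophil or mast-like cells had the largest positive log2 ratio in both measures. As a mean over barcodes the mitochondrial share of the whole cord library was higher than in SCI blood, at a log2 ratio of 0.30, where the sum over barcodes gave -0.09.

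The make-up of the mitochondrial UMIs set the cord apart from all blood libraries. MT-ND3, a small complex I subunit, took 10.3% of the mitochondrial UMIs in the cord and 4.93%, 5.35% and 5.19% in naïve, sham and SCI blood (log2 ratio to SCI blood 0.99, 0.96 to 1.02), and was at 0.84 to 1.01 in all 5 classes. MT-ND4L took 0.432%, against 0.181%, 0.180% and 0.182% (1.25, 1.12 to 1.37), and MT-ATP8 0.132%, against 0.0330%, 0.0287% and 0.0290% (2.19, 1.94 to 2.43). Both were above 0 in all 5 classes, for MT-ATP8 on only 3 to 13 UMIs per cord class. MT-ND2 was also higher in the cord, at 3.40% against 2.57% (0.41), but lay between -0.17 and 0.17 within the classes, above 0 in 3 of 5. The 18 cord barcodes of the unnamed CLC and CLU cluster are outside these 5 classes. In them MT-ND2 took 6.37%, MT-ATP8 0.265% (53 UMIs) and MT-ND3 10.8% of the mitochondrial UMIs. The part of this cluster in the library values was not tested.

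In turn MT-CO3 was lower in the cord, at 11.7% against 15.5% (-0.40, -0.42 to -0.38), as was MT-ND6, at 0.176% against 0.302% (-0.78, -0.98 to -0.59), and both were below 0 in all 5 classes. MT-CO1 was at 21.8% and 19.3%, MT-CO2 at 15.7% and 14.5%, MT-ND1 at 5.04% and 4.82%, MT-ND5 at 1.82% and 1.71%, MT-ND4 at 8.47% and 8.85%, MT-CYB at 8.64% and 9.52% and MT-ATP6 at 14.8% and 15.1%. Together the complex IV genes took 45.5% of the mitochondrial UMIs in the cord, against 52.9% in SCI blood, and the complex I genes 29.7% against 23.6%. These shares do not depend on any nuclear gene.

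**Figure D5:**
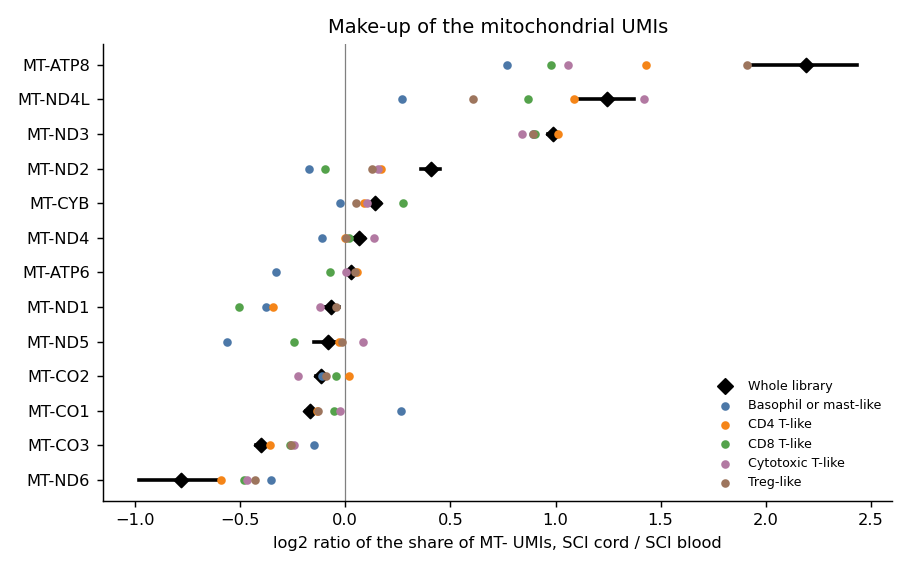
Log2 ratio (x axis) of each MT- gene's share of the mitochondrial UMIs, SCI cord against SCI blood, by gene (y axis); diamonds with lines are the whole libraries with exact 95% intervals and dots the 5 classes. MT-ND3, MT-ND4L and MT-ATP8 lie right of 0 and MT-CO3 and MT-ND6 left of 0 in the library and in every class. The MT-ATP8 dots rest on 3 to 13 UMIs per cord class.

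Preparation and quality values moved with the cord as well. Genes known to respond to tissue dissociation summed to 13736 CPM in the cord and 9030.2, 10405 and 10269 CPM in naïve, sham and SCI blood, with 19 of 26 past the fold upwards, 3 downwards and a median log2 ratio of 0.90. The median mouse share of UMIs in human barcodes was 0.597% in the cord and 0.209% to 0.258% in blood. The part of these in the cord differences was not tested. Barcodes of mouse cells (under 10% human UMIs) held few human UMIs, which can be free RNA or mismapped reads. These were not told apart. Such human UMIs were 22.2% mitochondrial in the cord (21.1% to 23.3%, 92 barcodes) and 6.80%, 7.25% and 9.27% in naïve, sham and SCI blood. This was above the share in human barcodes in the cord and, by less, in SCI blood, and below it in naïve and sham blood. The median human count in such a barcode was 42.5 UMIs in the cord and 15 to 20.5 in blood. The same mouse barcodes held 119967 mouse mitochondrial UMIs in the cord (92 barcodes) and 27769 in SCI blood (1214 barcodes).

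Other mitochondrial gene lists are read against the 32.3% of all genes past the fold upwards and 31.5% downwards in the cord comparison. Of the assembly factors of the complexes, 8 of 44 were past the fold upwards and 13 downwards (median log2 ratio -0.06), with COX17, the copper carrier for complex IV, at 1.09 (300.1 against 141 CPM), PET100 at 0.58 and COA6 at -0.49. Of the 78 mitochondrial ribosomal proteins, 10 were upwards and 35 downwards (median -0.25), with MRPL33 at 0.95 and MRPL52 at 0.47, and MRPL14 at -0.98 and MRPS26 at -0.92. Of 25 genes for upkeep and expression of mitochondrial DNA, 1 was upwards and 12 downwards (median -0.25). That gene was SLIRP, which binds mitochondrial mRNA (0.77), LRPPRC, its partner, was at 0.01, and SSBP1 and PNPT1 were at -0.25 and -0.53.

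TCA cycle and pyruvate dehydrogenase genes had 0 of 17 upwards and 4 downwards (median -0.15), with DLD at 0.29, IDH3B at -0.39 and OGDH at -0.62. Of 14 carriers and related inner membrane genes, 3 were upwards and 7 downwards (median -0.31), with CHCHD10 at 0.69, MPC1 at 0.49, the ADP/ATP carrier SLC25A5 at -0.59 and the uncoupling protein UCP2 at -0.73. The medians of 4 of these 5 lists thus lay below that of the nuclear OXPHOS genes by over 0.1 in the cord. In the blood comparisons, the same 5 lists had medians between -0.06 and 0.12.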

How the data were processed

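Human and mouse transcripts were measured with a droplet 3′ kit in live huCD45+ cells. The authors aligned reads with CellRanger to a combined human and mouse reference (hg38 and mm10 per the labels) and deposited UMI counts per gene and barcode, filtered to cell barcodes and not normalised. The counts were read as deposited. Barcodes with over 50% human UMIs were kept, without a filter on mitochondrial share, which is an outcome here. The filters of the study (3 median absolute deviations, and marked doublets with over 3000 genes) were an alternative, and kept 6333, 4662, 5941 and 118 barcodes. Scrublet scores marked 361, 198, 316 and 0 barcodes as possible doublets, a number set by library size, which were kept.

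Counts were summed per library or class. The denominator was human UMIs without ribosomal and MT- genes for nuclear genes, and all human UMIs for MT- genes. Log2 ratios used 0.5 added counts. Intervals (95%) were exact Poisson, binomial or conditional binomial ones. PCR duplicates were collapsed by UMI. Antisense and overlapping genes were taken as counted. With 1 library per group there was no test. Clusters used 2000 variable genes without OXPHOS, ribosomal, receptor variable and sex-linked genes, 30 components, 15 neighbours and Leiden resolution 0.8, with scanpy 1.11.5. A name needed at least 3 markers, each detected in 10% of cells; rules on ties, low depth and granzyme genes were settled with the clusters in view. Named genes were all MT- genes, listed core subunits and paralogs. Added to these were the 4 highest and 4 lowest log2 ratios per comparison with at least 100 counts and 50 CPM. The 5 that varied most between named classes were also taken. Others named were chosen after their values were seen. Members, lists and rules were chosen with earlier results of these data known. edgeR 4.0.16 gave TMM factors only. Gene log2 ratios and their counting intervals were tested on simulated Poisson counts for the cord and SCI blood libraries. Clustering, class names and mitochondrial shares were not tested in this way.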

Additional observations from a re-analysis of the deposited data

Results flagged for a closer look

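The mitochondrial share moved in opposite directions in different cell classes, with 1 library per group, so that the difference was not tested. Between SCI cord and SCI blood its log2 ratio was 0.43 in basophil or mast-like cells, -0.20 in CD4 T-like cells and -0.24 in cytotoxic T-like cells. Between SCI and naïve blood it was 0.50 in plasma-like cells, of which SCI blood had 10, and -0.13 in cytotoxic T-like cells and -0.16 in the unnamed T cell cluster led by NRP2 and AK5.

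Barcodes of mouse cells were outside the main measurement and still carried mitochondrial UMIs, of which the human ones can be free RNA or mismapped reads. Human MT- genes were 6.80%, 7.25%, 9.27% and 22.2% of the human UMIs in such barcodes of naïve, sham and SCI blood and the cord, from 1606, 3436, 2695 and 1258 UMIs. Among the mouse's own mitochondrial UMIs in them, mt-Nd3 took 1.70% in the cord and 0.375% in SCI blood, and mt-Nd4l 0.453% and 0.169%. The mouse cells differ in kind between the tissues, with haemoglobin genes at 32.8% of mouse UMIs in SCI blood and 0.000301% in the cord.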

How the results depend on the processing

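With 1 library per group no library could be left out. No paired analysis was possible because each group has 1 library, which leaves no spread within a group. Values here are log2 ratios in the order sham to naïve, SCI to naïve, SCI to sham blood and SCI cord to SCI blood, for the nuclear sum (0.086, 0.117, 0.030 and 0.169) and the mitochondrial share (-0.055, 0.042, 0.097 and -0.089); unless said, the cause of a shift was not tested. With ribosomal genes in the nuclear and out of the mitochondrial denominator the sums were 0.067, 0.0016, -0.066 and 0.266 and the shares -0.036, 0.157, 0.193 and -0.186. Without immunoglobulin genes in the denominator the first 2 sums were -0.0067 and 0.025 and the first 2 shares -0.124 and -0.026. As means over barcodes the last 3 sums were 0.124, 0.036 and 0.147, and the shares -0.086, -0.071, 0.015 and 0.301. With classes weighted equally the sums were 0.074, 0.086, 0.011 and 0.187 and the shares -0.103, -0.023, 0.069 and -0.023, with 4 instead of 10 nuclear genes past the fold between SCI and naïve blood and 1 instead of 3 between SCI and sham blood, and ATP5MC1 at 0.0036 between sham and naïve blood. Under the filters of the study SCI to naïve had a sum of 0.123, and the shares were -0.066, 0.050, 0.116 and -0.155. With at least 90% human UMIs the shares of sham to naïve, SCI to naïve and cord were -0.052, 0.045 and -0.110, and with marked doublets removed the first 2 were -0.050 and 0.047. TMM scaling, which moved all genes by -0.066, -0.077, -0.011 and -0.071, gave sums of 0.021, 0.040, 0.019 and 0.098. UMIs per barcode gave 0.436, 0.192, -0.244 and 1.30, beside a shift of all genes of 0.350, 0.076, -0.274 and 1.13.

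Leaving out plasma-like cells, and leaving out barcodes over 50% mitochondrial, were chosen after seeing the data. The former gave sums of 0.095 and 0.126 against naïve blood and 0.145 in the cord, shares of -0.150, -0.055 and, in the cord, -0.074, and ATP5MC1 at 0.099 and CYC1 at 0.014 between SCI and naïve blood. The latter gave shares of -0.059, 0.055, 0.115 and -0.115. For the 27 named gene results past the fold, 248 of 291 values under alternatives were still past it in the same direction. Over all gene results recomputed, 1069 values stayed within their counting intervals and 461 moved outside. A further 3 changed sign from a value past the fold. The 7 levels by class recomputed (nuclear in B-like, monocyte-like, cycling, CD4 and CD8 T-like cells, mitochondrial in B-like and monocyte-like cells) moved by less than their SD over the blood libraries with clustering resolutions of 0.4 and 1.5 and with the filters of the study. The 138 cord cells limit every cord value.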

Other observations

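The 18 subunits listed as core for naming and the other 70 nuclear OXPHOS genes, which include the core subunit NDUFV2, were also set side by side in blood. Their ranges overlapped. Against naïve blood the 18 listed subunits had medians of -0.04 in sham and -0.05 in SCI blood, with 11 of 18 below 0 in each. The other 70 genes had medians of 0.12 and 0.10, with 51 and 53 above 0. These comparisons share the naïve library. Against sham blood the medians in SCI blood were 0.02 and 0.02.

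Mouse mt-Nd6 took 0.0709% of the mouse mitochondrial UMIs in mouse barcodes of the cord and 0.0252% in those of SCI blood (85 and 7 UMIs), the opposite order to human MT-ND6, and mouse mt-Co3 took 18.8% and 19.7%. Mouse mitochondrial genes were 4.52% of mouse UMIs in the cord and 0.952% in SCI blood.

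In barcodes over 80% mitochondrial, MT-CO3 was at 18.0% of mitochondrial UMIs there and 15.4% in barcodes of up to 20% in naïve blood, 16.0% and 14.5% in sham blood and 16.9% and 15.4% in SCI blood. In the 4 such barcodes of the cord, MT-ND3 was at 10.1%, beside 10.2% in the cord barcodes of up to 20%.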
